A study of Mus musculus with 12 samples.

Results

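Calcineurin, its Z-disc partners and its inhibitors were followed through the growth of a mouse leg muscle. The set comprised 8 genes chosen by name, out of 55450 genes in the count table. They are the catalytic subunits *Ppp3ca* and *Ppp3cb*, the regulatory subunit *Ppp3r1*, the calsarcins *Myoz1*, *Myoz2* and *Myoz3*, and the inhibitors *Rcan1* and *Rcan2*. All 8 passed the filter on low counts that left 19276 genes to test. RNA came from the tibialis anterior, a mainly fast muscle of the shin, taken from wild-type mice on the 129Pas background of the sample labels, which the series text spells 129SvPas. There were 4 mice at each of 3 ages, E18.5 (a late embryo), 2 wks and 7 wks after birth, and no treatment is named in the labels. Every library came from a separate mouse. The labels give neither sex nor batch.

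Calcineurin is a phosphatase that calcium and calmodulin switch on. It removes phosphates from the NFAT transcription factors, which then enter the nucleus, and in muscle it is known for its link to nerve activity and to the slow fibre programme. Calsarcins, also called myozenins, hold calcineurin at the Z-disc, the plate that anchors the thin filaments of the sarcomere. *Myoz1* and *Myoz3* are known from fast fibres and *Myoz2* from slow fibres and heart. The Rcan proteins bind calcineurin and block it, and one of the *Rcan1* promoters is a known NFAT target.

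On the GRCm39 assembly, *Ppp3ca* (ENSMUSG00000028161) lies on the plus strand at chr3:136375445-136643491 and *Ppp3cb* (ENSMUSG00000021816) on the minus strand at chr14:20548406-20596668. *Ppp3r1* (ENSMUSG00000033953) lies at chr11:17109192-17150382 on the plus strand. *Myoz1* (ENSMUSG00000068697, minus strand, chr14:20697005-20706608) sits on the same chromosome as *Ppp3cb*, and *Myoz2* (ENSMUSG00000028116, minus strand, chr3:122797610-122828664) on that of *Ppp3ca*. *Myoz3* is ENSMUSG00000049173. *Rcan1* (ENSMUSG00000022951) spans chr16:92188840-92267755 on the minus strand and *Rcan2* (ENSMUSG00000039601) spans chr17:44112216-44350407 on the plus strand. Of the annotated exon bases of *Ppp3r1*, 462 (13.6%) are shared with *Dnaaf10* on the same strand, so reads there could be split or lost and its counts are less certain. *Ppp3ca* shares 261 exon bases (2.33%) with an antisense RNA.

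The start regions below are shown because *Rcan1* has a pair of them, of which the internal one holds the NFAT core, and because *Myoz2* was the calsarcin whose level did not pass the test. RefSeq sequences (GRCm38.p6) run from 250 bases before to 50 after each start. They were matched for *Myoz2*, *Ppp3r1*, *Ppp3cb*, *Rcan1* and *Rcan2*, and *Ppp3ca*, *Myoz1* and *Myoz3* are not shown. Capitals mark the core of the NFAT site, GGAAA on either strand (TTTCC on the strand shown), in *Rcan1*, and the E-box CANNTG, the site of MyoD-type factors, in *Myoz2*.
Rcan1 upstream start, chr16:92466120-92466419, minus strand: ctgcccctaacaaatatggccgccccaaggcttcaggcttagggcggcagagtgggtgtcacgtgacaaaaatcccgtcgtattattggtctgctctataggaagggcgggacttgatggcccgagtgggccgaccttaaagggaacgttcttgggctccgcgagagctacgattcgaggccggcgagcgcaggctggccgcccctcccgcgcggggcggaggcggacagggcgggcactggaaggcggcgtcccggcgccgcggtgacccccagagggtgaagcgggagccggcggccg
Rcan1 internal start, chr16:92400029-92400328, minus strand: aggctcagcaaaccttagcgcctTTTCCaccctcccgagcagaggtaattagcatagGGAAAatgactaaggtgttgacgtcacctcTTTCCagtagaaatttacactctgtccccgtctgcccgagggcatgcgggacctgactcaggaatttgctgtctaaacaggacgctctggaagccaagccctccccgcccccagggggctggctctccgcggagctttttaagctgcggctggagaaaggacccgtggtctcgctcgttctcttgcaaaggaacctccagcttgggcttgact
Myoz2 start, chr3:123034938-123035237, minus strand: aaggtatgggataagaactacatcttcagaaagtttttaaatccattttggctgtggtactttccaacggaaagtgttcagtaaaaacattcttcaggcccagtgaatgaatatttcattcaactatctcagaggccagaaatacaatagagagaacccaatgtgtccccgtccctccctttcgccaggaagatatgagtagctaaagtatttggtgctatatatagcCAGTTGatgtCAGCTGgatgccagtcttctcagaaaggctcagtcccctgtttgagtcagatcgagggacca
The internal *Rcan1* window held 3 NFAT cores and the upstream window held 0. Cores were not particular to *Rcan1*, for the *Ppp3cb* window held 4, the 3 *Rcan2* windows 2, 0 and 0, and that of *Ppp3r1* 0. Of 32851 RefSeq start regions of this length, 61.3% held at least 1 core, 26.7% at least 2 and 9.42% at least 3. The internal window also held 1 AP-1 motif (TGANTCA), found in 7.81% of all regions. The *Myoz2* window held 2 E-boxes (at least 2 stood in 39.6% of regions), 2 NFAT cores and 1 AP-1 motif. Searches covered both strands, and the 3 motifs were counted apart from each other. In GENCODE, 8 of the 14 *Rcan1* transcripts start within 100 bp of the internal start and 0 start that near to the upstream one. The counts are per gene, so they cannot be divided between the starts, and a match is only a description of the letters.

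The libraries held 63018968 to 123449246 counts on genes. Much of the depth went to few genes, since the top 20 held 13.7 to 16.1% in embryos, 33.2 to 35.6% in mice of 2 wks and 36.4 to 37.8% in those of 7 wks. Mitochondrially encoded genes held 3.27 to 7.58%, 7.81 to 10.3% and 12.9 to 16% at these ages, and their part in the results was not tested. Levels below are CPM values, a gene's part of its library after TMM scaling, which sets the libraries so that most genes do not differ. Set against scaling to the total count, TMM moved the median gene up by 0.927 on the log2 scale to 2 wks and by a further 0.349 to 7 wks. Changes therefore are relative to the bulk of genes, and values under total count scaling are given beside the results they turn. The 8 skeletal muscle markers were detected in every library, and their summed level was 13390 to 23180 CPM in the embryos, 116300 to 142700 CPM in mice of 2 wks and 124800 to 158300 CPM in those of 7 wks. In such bulk RNA, fewer cells of a type and less RNA per cell cannot be told apart. P-values weigh a difference between ages against the spread between the mice. They cannot separate age from a batch that the mice of an age might share, since the labels give none.

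From E18.5 to 2 wks, 6 of the 8 genes rose and 0 fell (edgeR quasi-likelihood test, Benjamini-Hochberg adjustment over all 19276 genes, threshold 0.05). Among all tested genes 31.5% rose and 34.2% fell, 65.7% in all, so a call by itself was common at this step. From 2 to 7 wks, 3 of 8 rose and 0 fell, against 13.5% and 13.9% of all genes (27.5% in all). Over the whole course 7 of 8 rose, against 34.3% rising and 37.1% falling (71.4% in all). The median log2 fold change of the 8 genes was 1.56, 0.45 and 1.95 for these comparisons, and that of all tested genes was -0.09, -0.03 and -0.09. Under total count scaling 4 rose and 2 fell to 2 wks (13.2% and 61.9% of all genes), 2 rose and 0 fell from 2 to 7 wks (4.92% and 28%), and 4 rose and 1 fell over the whole course (11.9% and 69%).

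**Figure D1:**
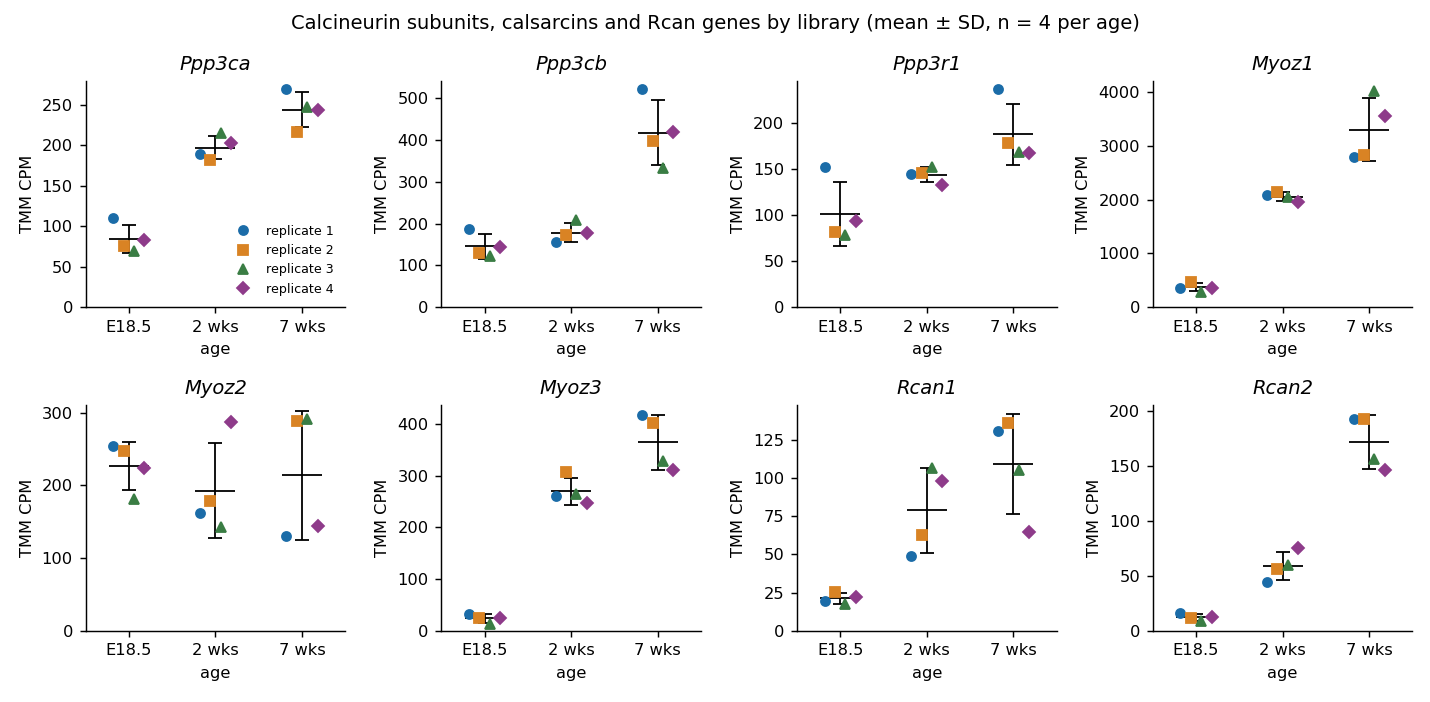
TMM-scaled CPM of the 8 genes in each of the 12 libraries by age, with points for the 4 mice and bars for mean ± SD. *Ppp3ca* stepped up before 2 wks (69.6 to 110 CPM at E18.5 against 182 to 215 at 2 wks) and *Ppp3cb* after it (155 to 208 against 332 to 521), while the *Myoz2* ranges of all ages overlapped.

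On the TMM scale the catalytic subunits rose at different times, but *Ppp3cb* rose in both intervals once a dependence on GC content was removed. *Ppp3ca*, which encodes the alpha form of the catalytic subunit, stood at 109.8, 75.6, 69.6 and 82.6 CPM in the E18.5 mice, at 189, 182, 215 and 203 CPM at 2 wks and at 269.6, 216, 248 and 244 CPM at 7 wks. Every 2 wks library lay above every E18.5 library, and every 7 wks library above every 2 wks library. Its mean of 84.4 ± 17.7 CPM (SD, n = 4) became 197 ± 14.6 and then 244 ± 21.9. The rise to 2 wks was 2.34-fold (log2 fold change 1.23, SE 0.16, edgeR with Benjamini-Hochberg adjusted p = 1.68e-05), and the change after it was 0.31 (SE 0.16, edgeR with Benjamini-Hochberg adjusted p = 0.156). With total count scaling the first step was 0.30 and the whole course 0.26, and both missed the threshold.

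*Ppp3cb*, the beta form, measured 187, 129.5, 122 and 143 CPM at E18.5 and 155, 172, 208 and 177 CPM at 2 wks, and these ages overlapped. At 7 wks it measured 521, 398, 332 and 418 CPM, clear of both earlier ages. The rise from 2 to 7 wks was 2.34-fold (log2 fold change 1.23, SE 0.18, edgeR with Benjamini-Hochberg adjusted p = 0.000384). Before 2 wks the log2 fold change was 0.29 (SE 0.18, edgeR with Benjamini-Hochberg adjusted p = 0.164), and it was 0.44 and called without E18.5 replicate 1. Total count scaling gave 0.25 over the whole course, not called. The first step has no settled sign. It was a fall of 0.64 on the log2 scale that passed the threshold under total count scaling. It was a rise of 0.83 that passed once the library-wise dependence of counts on GC content (the GC trend) was removed. With that trend removed the rise after 2 wks was 0.92, still called. The *Ppp3cb* transcript is AT-rich (39.3% GC) next to that of *Ppp3ca* (46.5%), and its GC trend was between -0.07 and 0.67 in the E18.5 libraries and between -0.30 and -0.21 in those of 2 wks on the log2 scale.

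Tested against each other, the intervals differed for both genes and in opposite directions. For *Ppp3ca* the change after 2 wks was smaller than the change before it by 0.92 on the log2 scale (edgeR with Benjamini-Hochberg adjusted p = 0.0154), and for *Ppp3cb* it was larger by 0.94 (edgeR with Benjamini-Hochberg adjusted p = 0.0315). The *Ppp3ca* difference was -0.33 and not called under total count scaling, and it missed the threshold at -0.84 without 2 wks replicate 3. For *Ppp3cb* the difference lost its call in 5 of the 12 fits that left out a library (without 2 wks replicate 1, 2 or 4 or 7 wks replicate 1 or 4, with values of 0.78 to 1.096 over all 12 fits), with the replicate number as a block (0.88) and with the GC trend removed (0.09). Such a difference was called for 5 of the 8 genes and for 38.4% of all tested genes.

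*Ppp3r1* encodes the calcium-binding regulatory subunit that both catalytic subunits need. It measured 152, 81.2, 77.7 and 93.3 CPM at E18.5, where replicate 1 lay above the rest, and 144, 146, 152 and 132 CPM at 2 wks. At 7 wks it measured 237, 178, 168 and 167 CPM, with replicate 1 again highest. The GC trend of the gene was also highest in replicate 1 at both ages. On the log2 scale it was 0.57 against -0.04 to 0.25 at E18.5 and 0.23 against -0.24 to 0.11 at 7 wks. The part of this trend in the values was not tested. The rise of *Ppp3r1* to 2 wks was 1.42-fold (log2 fold change 0.51, SE 0.20, edgeR with Benjamini-Hochberg adjusted p = 0.0407), close to the threshold. From 2 to 7 wks the value was 0.38 (SE 0.20, edgeR with Benjamini-Hochberg adjusted p = 0.178). The first call was lost without E18.5 replicate 2, 3 or 4 and without 2 wks replicate 1, 2 or 3 (0.40 to 0.77 over the 12 fits with a library left out). It was also lost with upper quartile scaling, without the filter, with a stricter one, with the length trend removed, in the 8 libraries alone and with DESeq2 (0.24 to 0.50), while removal of the GC trend kept it, at a larger value. The later step passed the threshold without E18.5 replicate 1, at the same value of 0.38. Over the whole course the gene rose 1.86-fold (edgeR with Benjamini-Hochberg adjusted p = 0.00141), but total count scaling gave -0.41 and -0.38 for the first step and the whole course, neither called.

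Ratios within a library do not depend on how libraries are scaled, and they set the subunits against each other directly. Counts were divided by the length of the canonical transcript (4925 bp for *Ppp3ca*, 4884 bp for *Ppp3cb* and 2935 bp for *Ppp3r1*). *Ppp3ca* to *Ppp3cb* was 0.582, 0.579, 0.566 and 0.574 at E18.5, then 1.21, 1.05, 1.02 and 1.14 at 2 wks, and 0.513, 0.539, 0.739 and 0.580 at 7 wks. The 2 wks mice thus stood apart from both other ages with no overlap, and the oldest and youngest overlapped. Of the reads per kb of *Ppp3ca* and *Ppp3cb*, with the gamma form *Ppp3cc* left out, *Ppp3ca* made up 36.5 ± 0.288% at E18.5. Its share was 52.5 ± 1.86% in the 2 wks mice and 37.0 ± 3.81% in the 7 wks mice (SD, n = 4). The log2 ratio rose by 0.94 to 2 wks and fell by 0.91 after it, and each step had an exact two-sided permutation p = 0.0286, the smallest that 4 mice against 4 can give, and an adjusted p of 0.0476 over the 15 ratio tests. Between E18.5 and 7 wks it differed by 0.03 (exact permutation p = 0.914). With the GC trend removed the steps were 0.64 and -0.81, both still called.

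*Ppp3ca* and *Ppp3cb* together, set against *Ppp3r1*, gave ratios of 1.17 to 1.51 at E18.5. The ratios were 1.43 to 1.72 in the 2 wks mice and 2.00 to 2.38 in the 7 wks mice. The 7 wks libraries lay above all others, and the rise from 2 to 7 wks was 0.44 on the log2 scale (exact permutation p = 0.0286, adjusted p = 0.0476). To 2 wks the difference was 0.16 (exact permutation p = 0.257), with overlapping ages, and it was 0.47 and called when the trend over transcript length was removed.

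**Figure D2:**
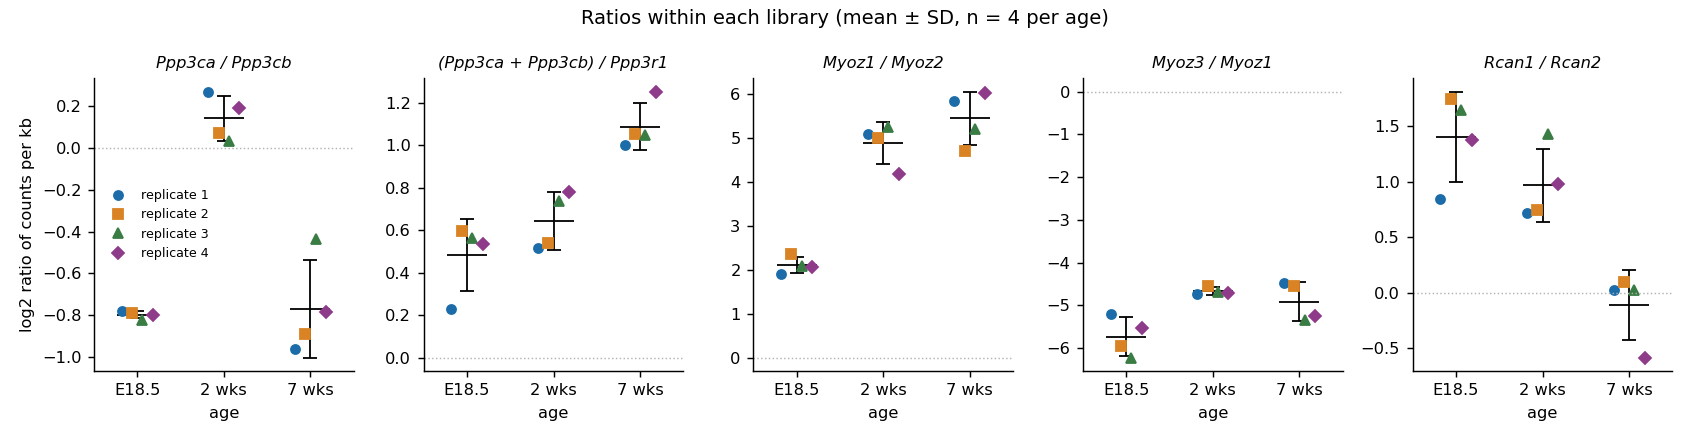
Log2 ratio of counts per kb between members of the set within each library, by age, with points for the 4 mice and bars for mean ± SD. *Ppp3ca* to *Ppp3cb* lay above 0 in all 4 mice of 2 wks (0.03 to 0.27) and below 0 in all 8 others (-0.96 to -0.44).

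Among the calsarcins, *Myoz1* and *Myoz3* rose steeply and *Myoz2* did not pass the test in either interval. *Myoz1*, calsarcin 2, had the highest level per kb of the 8 genes at each age. It measured 357, 474, 289 and 353 CPM at E18.5, 2076, 2142, 2051 and 1953 CPM at 2 wks, and 2798, 2835, 4019 and 3549 CPM at 7 wks, so the ages did not overlap. It rose 5.58-fold to 2 wks (log2 fold change 2.48, SE 0.20, edgeR with Benjamini-Hochberg adjusted p = 3.53e-07) and 1.61-fold after it (0.68, SE 0.19, edgeR with Benjamini-Hochberg adjusted p = 0.0166). The later rise was 0.33 and not called under total count scaling. The interval after 2 wks brought 1.80 less on the log2 scale than the one before (edgeR with Benjamini-Hochberg adjusted p = 0.00101).

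*Myoz3*, calsarcin 3, had the largest fold change of the set to 2 wks. Its levels were 32.3, 25.4, 12.9 and 25.3 CPM at E18.5, 261, 307, 264 and 246 CPM at 2 wks, and 417, 401, 328 and 309.9 CPM at 7 wks. None of these ages overlapped. The rise to 2 wks was 11.3-fold (log2 fold change 3.49, SE 0.25, edgeR with Benjamini-Hochberg adjusted p = 1.26e-07), and that from E18.5 to 7 wks was 15.2-fold. From 2 to 7 wks the value was 0.43 (SE 0.22, edgeR with Benjamini-Hochberg adjusted p = 0.167), a step that was called only when the fit was limited to the 8 libraries of those ages. The intervals differed by 3.06 on the log2 scale, the second being the smaller (edgeR with Benjamini-Hochberg adjusted p = 8.05e-05).

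*Myoz2*, calsarcin 1, measured 254, 247, 181.5 and 224 CPM at E18.5, 162, 179, 143 and 288 CPM at 2 wks, and 130.1, 289, 292 and 145 CPM at 7 wks. All 3 ages overlapped, and the spread between mice grew from an SD of 32.7 CPM at E18.5 to 64.9 at 2 wks and 88.4 at 7 wks. Its log2 fold changes were -0.23 (95% interval -0.84 to 0.38) and 0.15 (-0.46 to 0.76), with adjusted p-values of 0.487 and 0.733 (edgeR, Benjamini-Hochberg). The interval still allows a change of 0.84 down to 2 wks, and total count scaling gave falls of 1.17 to 2 wks and 1.36 over the whole course that passed the threshold, while removal of the GC trend gave 0.28 to 2 wks, not called. Its transcript has 39.2% GC, nearly that of *Ppp3cb*, and 54.6% was found for *Myoz1*.

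The calsarcin ratios were free of the scaling choice but not of GC content. *Myoz1* to *Myoz2* per kb was 3.73 to 5.11 at E18.5, against 18.0 to 38.1 in the 2 wks mice and 26.1 to 65.1 in the 7 wks mice. The rise to 2 wks was 6.85-fold (log2 ratio 2.78, exact permutation p = 0.0286, adjusted p = 0.0476), and the later ages overlapped (0.56, exact permutation p = 0.229). With the GC trend removed the log2 ratio to 2 wks was 1.60, and with the length trend removed 2.17, both still called. *Myoz2* was 18.7 ± 1.88% of the calsarcin reads per kb at E18.5 and 3.30 ± 1.19% at 2 wks. Dividing by all exon bases in place of the canonical transcript put these shares at 26.8 ± 2.25% and 4.93 ± 1.76%. *Myoz3* to *Myoz1* was 0.0134 to 0.0272 at E18.5 and 0.0378 to 0.0431 at 2 wks, with no overlap, so the rarer fast calsarcin gained on the abundant one by 1.06 on the log2 scale (exact permutation p = 0.0286, adjusted p = 0.0476). Removal of the GC or the length trend put that gain at 1.62 or 1.79.

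After birth the mice high in *Myoz2* were also high in *Myh2*, the myosin of fast oxidative fibres, a comparison made after the values were seen. The match was not particular to *Myh2*. Replicate 4 at 2 wks was also highest for *Actn2*, *Tcap* (2491 CPM), *Csrp3* (703 CPM) and *Myh1* (24690 CPM). At 2 wks *Myh2* measured 691, 936, 912 and 4974 CPM, and replicate 4 was also the highest for *Myoz2*, though replicate 3, lowest for *Myoz2*, was not lowest for *Myh2*. In embryos *Myh2* was at 34.1, 86.4, 42.6 and 50.2 CPM, and its highest mouse was not that of *Myoz2*. At 7 wks *Myh2* was at 1926, 4456, 3397 and 2015 CPM. Replicates 2 and 3 led in both genes, though replicate 3 was the higher for *Myoz2* and replicate 2 for *Myh2*. *Actn2*, the alpha-actinin that calsarcins bind, was 1378, 1527, 2732 and 4934 CPM at 2 wks and 2069, 3001, 2474 and 1843 CPM at 7 wks. *Myh7*, the slow myosin, did not follow *Myoz2* at 2 wks, for it was lowest there in replicate 4 (39.5, 9.72, 7.90 and 4.44 CPM). With 4 mice an age these orders were not tested.

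**Figure D3:**
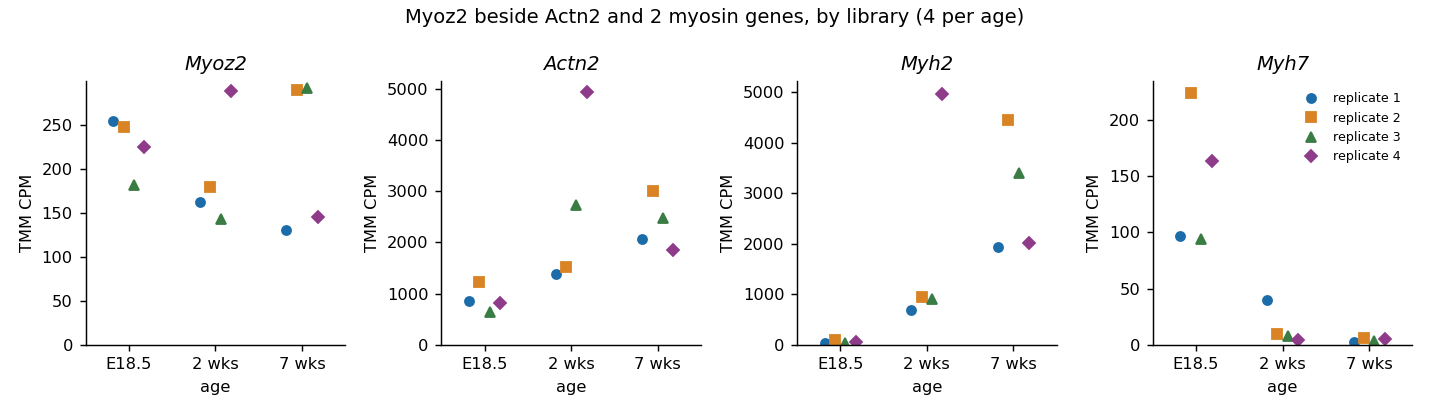
TMM-scaled CPM of *Myoz2*, *Actn2* and the myosins *Myh2* and *Myh7* in the 12 libraries by age, 1 point per mouse with a marker for each replicate. Replicate 4 at 2 wks and replicates 2 and 3 at 7 wks were highest for both *Myoz2* (288, 289 and 292 CPM) and *Myh2* (4974, 4456 and 3397 CPM).

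The inhibitors *Rcan1* and *Rcan2* both rose before 2 wks, and *Rcan2* went on rising. *Rcan1*, measured 19.4, 25.6, 17.8 and 21.8 CPM at E18.5 and 48.6, 62.5, 107 and 97.9 CPM at 2 wks. At 7 wks it measured 130.3, 136, 105 and 64.6 CPM, which overlapped the 2 wks values. It rose 3.73-fold to 2 wks (log2 fold change 1.90, SE 0.27, edgeR with Benjamini-Hochberg adjusted p = 4.35e-05) and changed by 0.47 after it (SE 0.27, edgeR with Benjamini-Hochberg adjusted p = 0.208). The intervals differed by 1.43, the second being the smaller (edgeR with Benjamini-Hochberg adjusted p = 0.0227), a call lost without 2 wks replicate 3 (-1.08) or 4 (-1.20), under total count scaling (-0.80) and with the length trend removed.

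*Rcan2* measured 16.4, 11.5, 8.59 and 12.7 CPM at E18.5, 44.6, 56.5, 59.8 and 75.1 CPM at 2 wks, and 194, 193, 156.5 and 146 CPM at 7 wks. No ages overlapped. It rose 4.80-fold to 2 wks (log2 fold change 2.26, SE 0.21, edgeR with Benjamini-Hochberg adjusted p = 1.30e-06) and 2.92-fold from 2 to 7 wks (1.55, SE 0.21, edgeR with Benjamini-Hochberg adjusted p = 0.000197), and both rises were called under total count scaling. Its intervals did not differ beyond the threshold (-0.72, edgeR with Benjamini-Hochberg adjusted p = 0.115), although without E18.5 replicate 1 (-0.89) or with the GC trend removed (-1.22) they did. *Rcan1* to *Rcan2* per kb was 1.79 to 3.36 at E18.5, against 1.65 to 2.70 in the 2 wks mice and 0.667 to 1.07 in the 7 wks mice. *Rcan1* thus went from 72.3 ± 5.82% and 66.0 ± 4.99% of the pair at the younger ages to 48.1 ± 5.44% at 7 wks (SD, n = 4). The fall after 2 wks was 2.11-fold (log2 ratio -1.08, exact permutation p = 0.0286, adjusted p = 0.0476), and before it the ages overlapped (-0.44, exact permutation p = 0.143).

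**Figure D4:**
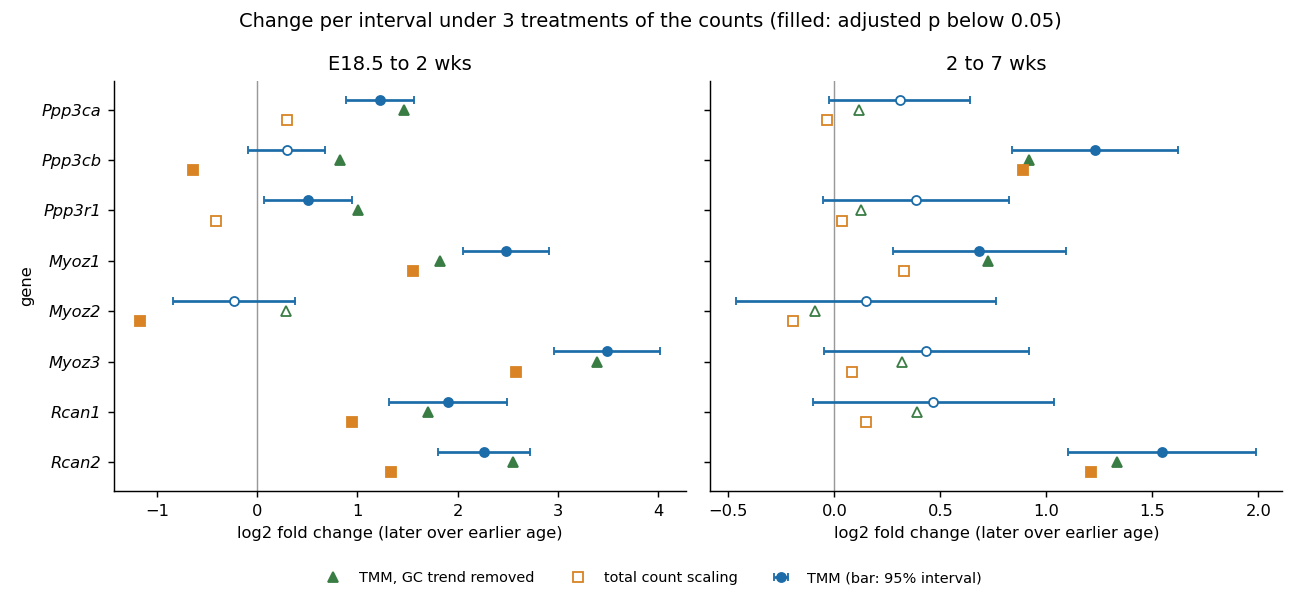
Log2 fold change of the 8 genes in each interval with TMM scaling (95% interval), with the GC trend removed, and with total count scaling, where filled marks passed the threshold. *Myoz1*, *Myoz3*, *Rcan1* and *Rcan2* rose to 2 wks in all 3, whereas the value of *Ppp3cb* ran from -0.64 to 0.83.

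Levels per kb of canonical transcript give an order of the 8 genes at each age, which depends on the length used. At E18.5, *Myoz1* led with 286 ± 59.9 CPM per kb, then came *Myoz2* with 66.2 ± 9.55, *Ppp3r1* with 34.4 ± 11.7, *Ppp3cb* with 29.8 ± 5.96, *Ppp3ca* with 17.1 ± 3.60, *Rcan1* with 9.64 ± 1.53, *Myoz3* with 5.59 ± 1.88 and *Rcan2* with 3.71 ± 0.974 (SD, n = 4). Only *Ppp3r1* with *Ppp3cb* and *Myoz3* with *Rcan2* overlapped as neighbours. Per kb of all exon bases, *Ppp3r1* and *Ppp3cb* did not overlap at E18.5. On that scale *Myoz2* overlapped *Ppp3r1*, *Ppp3ca* overlapped *Rcan1*, and *Myoz3* overlapped both *Rcan1* and *Rcan2*. By 7 wks *Myoz1* stood at 2560 ± 458 CPM per kb and the other 7 lay between 49.6 ± 4.44 (*Ppp3ca*) and 85.4 ± 16.0 (*Ppp3cb*), each overlapping its neighbour. *Ppp3ca* and *Rcan1* (49.7 ± 14.8) were the lowest and did not differ beyond their spread. Per kb of all exon bases, *Ppp3ca* was still lowest at 7 wks, but *Myoz3* (72.3 to 97.3) was clear of *Ppp3r1* (49.0 to 69.5) below it. *Ppp3ca* had risen 2.90-fold since E18.5 on the TMM scale.

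The shares of calcineurin partners that rose and fell to 2 wks can be read against 31.5% and 34.2% of all genes. After 2 wks 13.5% of all genes rose and 13.9% fell. Under total count scaling the shares of all genes were 13.2% and 61.9% to 2 wks and 4.92% and 28% after it. Of 12 tested calcineurin partners, 4 rose and 2 fell to 2 wks, with a median of 0.35 on the log2 scale, but 2 rose and 6 fell under total count scaling. The genes that rose on the TMM scale included *Calm3*, which encodes calmodulin (1.54), *Ppp3cc*, the gamma catalytic subunit (1.23), and *Fbxo32*, a ubiquitin ligase subunit of muscle that can target calcineurin (2.36). *Rcan3* and *Ppia*, the cyclophilin through which cyclosporin blocks calcineurin, fell by 0.66 and 0.90. The rise of *Ppp3cc* was 0.30 and not called under total count scaling. From 2 to 7 wks 4 rose and 1 fell (2 and 6 under total count scaling), *Fbxo32* by 2.35 and *Ppp3cc* by 1.37 the most. *Ppp3cc* still reached only 27.7 to 34.6 CPM at 7 wks, and the testis form of the regulatory subunit, *Ppp3r2*, had 0 to 6 reads in a library and was not tested.

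The next list of 14 genes held NFAT genes, kinases that oppose calcineurin, and *Homer1*, *Homer2* and *Homer3*, which are neither. The means of these Homer genes were 36.2, 9.89 and 5.38 CPM at E18.5 and 71.8, 23.2 and 10.2 CPM at 2 wks. Of all 14 genes, 6 rose and 5 fell to 2 wks (median 0.08). After 2 wks 6 rose and 2 fell (median 0.42), where 13.5% and 13.9% of all genes did so. The split to 2 wks was near that of all genes. Total count scaling turned these into 2 rising and 8 falling, then 0 and 3. Of all genes 13.2% rose and 61.9% fell to 2 wks under that scaling, and 4.92% and 28% did so after it. The split to 2 wks was again near that of all genes. *Nfatc1* rose 1.79 on the log2 scale before 2 wks and changed by 0.04 after it, not called. *Nfatc3* fell by 0.64 and then rose by 0.59 (0.24 and not called under total count scaling), and *Nfatc4* fell in both intervals (by 1.25 and 0.69). After 2 wks *Gsk3a* (0.62), *Gsk3b* (0.59) and *Dyrk1a* (0.72), kinases that send NFAT back out of the nucleus, rose, but under total count scaling their values were 0.27, 0.26 and 0.39 and none was called. *Dyrk1b* rose 2.46 before 2 wks.

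Of the Z-disc partners of calsarcins 6 of 7 rose to 2 wks (median 1.74) and 1 of 7 rose after it (*Myot*, 0.75), while under total count scaling 4 and then 0 rose. Of all genes 31.5% rose and 34.2% fell to 2 wks on the TMM scale, and 13.5% and 13.9% did so after it. Under total count scaling 13.2% rose and 61.9% fell to 2 wks, and 4.92% and 28% did so after it. The 1 riser of 7 after 2 wks was thus near the share of all genes. *Tcap* and *Actn3*, the latter the alpha-actinin of fast fibres, rose most (5.91 and 5.29). All 11 fast fibre genes rose to 2 wks (median 3.30) and 0 of 11 passed the test after it. Under total count scaling 3 of 11 fell after 2 wks, near the share of all genes. Of 10 slow fibre genes, 7 fell and 2 rose to 2 wks (median -1.57). The risers were *Mb*, the oxygen carrier myoglobin (7.65), and *Myl3*, a myosin light chain (1.30). Under total count scaling 1 rose and 8 fell, with *Myl3* at 0.40 and not called, and removal of the GC trend left it at 0.61, not called. From 2 to 7 wks 7 slow fibre genes fell and *Mb* rose by 1.72 (1.44 and not called under total count scaling). The lists were chosen with results of these data known.

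**Figure D5:**
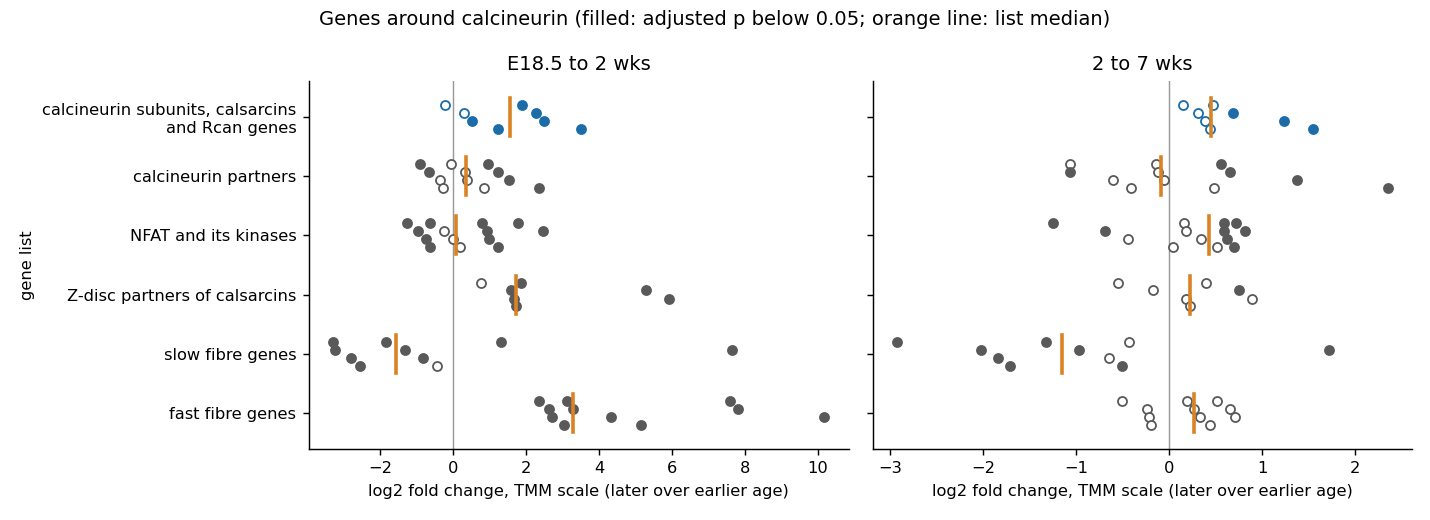
Log2 fold change on the TMM scale of the 8 genes and of 5 lists around them in each interval, 1 dot per gene, filled where the adjusted p passed the threshold, with the list median as a line. To 2 wks the medians ran from -1.57 (slow fibre genes) to 3.30 (fast fibre genes), with 1.56 for the 8 genes.

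Markers of other cells in the muscle also moved with age. Their counts can be read against all genes, of which 31.5% rose and 34.2% fell to 2 wks. After 2 wks 13.5% rose and 13.9% fell. Under total count scaling the shares were 13.2% and 61.9% to 2 wks and 4.92% and 28% after it. Of 7 endothelial markers 5 rose to 2 wks and 3 fell after it, or under total count scaling 3 and 5, with sums of 359 to 518, 864 to 1013 and 555 to 817 CPM at the 3 ages. Fibroblast markers went from 7896 to 14750 CPM over 4715 to 6468 to 1093 to 4249. Of the 8, 4 fell and 1 rose to 2 wks, and 4 fell after it. Adipocyte markers ranged from 178 to 2693 CPM among the E18.5 mice and from 311 to 486 later, with 5 of 6 falling to 2 wks. *Fabp4* alone had means of 442 and 366 CPM at 2 and 7 wks, where the sums had means of 447 and 371. *Adipoq* had means of 103, 1.60 and 1.32 CPM at the 3 ages. Of 7 nerve and Schwann cell markers 2 rose and 3 fell to 2 wks and 4 fell after it, at 160 to 252, 135 to 631 and 102 to 154 CPM. Red blood cell markers were at 242 to 1026, 146 to 756 and 92.0 to 129.7 CPM, with 2 of 7 falling to 2 wks and 5 after it. Cartilage and bone markers were at 23.9 to 148, 5.15 to 31.4 and 3.53 to 14.8 CPM, and *Matn1* was at 0 in the 8 libraries after birth. The part of these cells in the values of the 8 genes was not tested.

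The genes whose course over the 12 libraries was most like each member were found among 8931 well-measured genes by the root mean square difference of centred log2 CPM. For *Ppp3ca* they were *Pcmt1* (0.094) and *Myorg* (0.126), for *Ppp3cb* *Pgm2l1* (0.122) and *Rragd* (0.126), and for *Ppp3r1* *Igip* (0.117) and *Btbd1* (0.131). *Myoz1* was nearest to *Tnnt3* (0.160), the fast troponin T, and *Ube2d-ps* (0.166). *Myoz3* was nearest to *Clcn1* (0.204), the muscle chloride channel, and *Ociad2* (0.298), while *Rcan1* was nearest to *Dffa* (0.214) and *Cnnm4* (0.233), and *Rcan2* to *Osbpl6* (0.179) and *Plaat1* (0.194). *Myoz2* had no gene nearer than *Micu2* (0.336), the largest such gap of the set. Within the set, *Ppp3ca* and *Ppp3r1* were the closest pair (0.339) and *Myoz2* and *Myoz3* the farthest (1.94).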

How the data were processed

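Paired-end 100 bp reads of polyA RNA (a stranded TruSeq kit) were trimmed with cutadapt 1.10 and aligned with STAR 2.5.3a, and counted per gene with HTSeq 0.6.1p1, per the submitters' processing notes. Those notes name mm10, whereas the study's methods name GRCm39. The annotation release and the strand setting of the counting are not given in the sources used here. The authors deposited raw counts per Ensembl gene, and all 12 columns were used. The columns were matched to mice by the labels, and the counts were scaled with TMM and tested with edgeR 4.0.16 (R 4.3.3), all 12 libraries entering 1 model of age after filterByExpr. The biological coefficient of variation was 0.279, and counting error was small beside it. Coordinates and transcript lengths came from GENCODE vM39. Named genes were the 8 members, any gene of the lists and the 2 nearest profiles per member. The members, lists and tests were chosen with earlier results of these data known. Tested on simulated data with 200 genes changed 2-fold among 18120, the fit for E18.5 to 2 wks recovered 159 of them and made 3 false calls. That simulation gave all genes a dispersion of 0.05 and changed few of them, whereas 65.7% of tested genes were called in the data. It therefore cannot show how the fit and its scaling fare when most genes change. Alternatives were other scalings and filters, removal of GC or length trends, a replicate block, DESeq2 1.42.0, only the 8 libraries compared, and each library left out. All 18 pairs of replicates differed by more than counting error (chi-square per degree of freedom 31.2 to 524).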

Additional observations from a re-analysis of the deposited data

Results flagged for a closer look

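Of 39 groups of 4 mice examined (8 genes and 5 ratios at 3 ages), 2 held a mouse set apart from the others by a gap past Dixon's critical value for 4 samples, and chance flags about 1 in 20 groups. *Ppp3r1* in 7 wks replicate 1 was at 236.6 CPM, while the others were at 167 to 178 CPM. Its GC trend on the log2 scale was 0.23 in that library and -0.24 to 0.11 in the others. Its length trend was 0.09 there and 0.11 to 0.17 in the others. The part of these trends in the gap was not tested. The log2 ratio of *Rcan1* to *Rcan2* in 7 wks replicate 4 was -0.5853, while the others were at 0.02 to 0.09. Without that mouse the fall of the ratio after 2 wks was 0.92 in place of 1.08 on the log2 scale.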

How the results depend on the processing

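Scaling was the choice that mattered most. Under total count scaling the log2 fold change turned sign for *Ppp3cb* (-0.64) and *Ppp3r1* (-0.41) to 2 wks, for *Ppp3ca* (-0.036) and *Myoz2* (-0.19) from 2 to 7 wks and for *Ppp3r1* (-0.38) over the whole course, and the *Ppp3r1* difference of the intervals became 0.44. Of the 8 genes, 3 in place of 5 then had intervals that differed, and of all 19276 tested genes 8430 in place of 7398. With the GC trend removed *Myoz2* turned to 0.28, -0.092 and 0.19 in the 3 comparisons and its interval difference to -0.37, and the log2 ratio of *Ppp3ca* to *Ppp3cb* from E18.5 to 7 wks turned to -0.16. *Myoz3* to *Myoz1* then passed the threshold after 2 wks (-0.41) and over the whole course (1.22), and *Rcan1* to *Rcan2* to 2 wks (-0.90). With the length trend removed the catalytic to regulatory ratio to 2 wks (0.47) and *Myoz3* to *Myoz1* over the whole course (1.44) passed, and the *Ppp3r1* interval difference was 0.10, whereas with the GC trend removed it was -0.88 and called. The cause was not tested. With each library left out in turn, 3 to 6 of the 8 genes had intervals that differed (3 without 2 wks replicate 3 or 4). Of the 19494 to 19937 genes tested in these fits, 5273 to 8297 did so. All genes called from 2 to 7 wks numbered 3472 to 6145 (3472 without 2 wks replicate 1). *Myoz2* ranged from -0.037 to 0.41 after 2 wks and from -0.26 to 0.10 over the whole course. Over the whole course 7 of the 8 genes were called in all 12 of these fits, which called 13244 to 13928 of all tested genes.

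The replicate numbers of the labels gave no clear pairing of the libraries. Correlations were -0.283 to 0.514 for libraries of the same number and -0.5 to 0.382 for the others. The highest value, 0.514, joined E18.5 replicate 1 and 7 wks replicate 1. With the number as a replicate block 6, 3 and 7 of the 8 genes were called, beside 12470, 5149 and 13611 of all genes. Intervals that differed were called for 4 of the 8 (*Ppp3cb* was lost) and for 7287 of all genes. Each gene of the set had at least 1761 reads in every library, and the part of depth in the results was not tested.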

Other observations

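Libraries of an age split in pairs for several of the 8 genes, a pattern noticed after the values were seen and given here as values. At 7 wks replicates 1 and 2 had more *Myoz3* (417 and 401 CPM against 328 and 309.9 in replicates 3 and 4) and less *Myoz1* (2798 and 2835 against 4019 and 3549). *Myoz3* to *Myoz1* per kb was thus 0.0448 and 0.0426 in the former and 0.0246 and 0.0263 in the latter. *Rcan2* was at 194 and 193 CPM in the former pair and at 156.5 and 146 CPM in the latter. On the log2 scale the length trend of *Myoz1* was 0.008 and 0.17 in the former pair and 0.55 and 0.27 in the latter. Its GC trend was 0.05 and 0.14 against 0.32 and 0.24. For *Myoz3* the GC trend was 0.13 and 0.15 against 0.09 and 0.10. For *Rcan2* the GC trend was 0.17 and 0.12 against -0.09 and 0.02, while its length trend was 0.10 to 0.12. The part of these trends in the split was not tested.

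At 2 wks replicates 3 and 4 had more *Rcan1* (107 and 97.9 CPM against 48.6 and 62.5 in replicates 1 and 2). The same libraries had more *Tcap* (1508 and 2491 against 563 and 553 CPM), *Csrp3* (262 and 703 against 40.2 and 39.8 CPM) and *Myh1*, a fast myosin (12410 and 24690 against 4993 and 5651 CPM). Mitochondrially encoded genes held 10.1 and 10.3% of their counts against 7.81 and 8.13%, and the TMM factors were 0.824 and 0.810 against 0.946 and 0.922. The part of either in these values was not tested. *Ppp3cb* and *Myoz3* did not split that way (155, 172, 208 and 177 CPM, and 261, 307, 264 and 246 CPM).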
